A study of Mus musculus with 9 samples.

Results

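Molecular chaperones of the cytosol and the mitochondrion were followed as transcripts in J774A.1, a mouse macrophage cell line. The set was named gene by gene: the HSP70 and HSP90 families with their co-chaperones, subunits of the chaperonin TRiC, chaperones of the mitochondrial matrix, and the heat shock factor gene Hsf1. Of the 34 genes named, 33 had a row under their symbol among the 26157 genes of the deposited table, and all 33 were among the 14014 genes tested. Hspa1a was not analysed here. Levels are in TPM, the share of all transcripts scaled to the same total in every library. TPM corrects for gene length, here that of all annotated exons of a gene, whether or not they are expressed. Levels of different genes can therefore be compared only roughly.

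Poly-A RNA was sequenced from 9 libraries in 3 groups, with 3 libraries labelled for each. In the Q11 group, Q11 was added together with both cytokines; the title of the series calls it a CYP2E1 inhibitor, CYP2E1 being a cytochrome P450 enzyme. In the M2 group, IL-4 and IL-13 were given alone (10 ng/mL). Control cells were kept in ordinary culture. All groups are 1 cell line with no genetic change stated. The labels do not state the dose of Q11, the time of exposure or whether libraries came from separate cultures, so p-values measure the spread between these libraries, which may be technical.

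The column of Q11 replicate 2 held the reads of Q11 replicate 3 as well as others. Of 19471 genes above 0 in Q11 replicate 3, only 11 were lower in Q11 replicate 2 than 0.526 times their replicate 3 value, and 2086 sat at that ratio. Against the other 7 libraries the same bound was undercut in 11.6% to 16.7% of genes. Reads recovered from the TPM came to 15816366 to 17096676 in 8 libraries and 32194144 in Q11 replicate 2. This library was therefore left out of the fit, so that every test below rests on 3 M2, 3 control and 2 Q11 libraries (replicates 1 and 3). Its values are printed in their place, and counts with it, or with the shared part subtracted, are given beside the results. Principal components were computed over all 9 libraries as deposited, Q11 replicate 2 included. M2 replicate 3 lay furthest out on the second principal component (-29.9, against -10.04 and -7.45 for the other M2 libraries). The 2 Q11 libraries of the fit lay apart. Replicate 1 was at 3.95 on the first component and -8.97 on the second, near M2 replicates 1 and 2 (9.35 and 3.55 on the first). Replicate 3 was at 22.3 and 20.6. All 12 macrophage markers averaged at least 1 TPM, and their sum was 9440.0 to 9522 TPM in Q11, 9065 to 9814 TPM in M2 and 13400.0 to 13930.0 TPM in control libraries. Of 16 markers of other cell types with a row, 2 reached that mean, the T cell gene Lck and the neutrophil gene S100a8. The neutrophil markers summed to 17.0 to 19.9 TPM in Q11, 17.2 to 29.4 TPM in M2 and 29.5 to 38.0 TPM in control libraries, and the T cell markers to 10.05 to 10.9 TPM in Q11, 9.27 to 13.2 TPM in M2 and 9.81 to 13.2 TPM in control libraries. The part of these markers in the results below was not tested.

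Chaperones bind unfolded or partly folded proteins and keep them from aggregating. HSP70 proteins take hold of exposed stretches with the help of J-domain proteins, which start ATP hydrolysis, and exchange factors, which reset it. HSP90 acts later on kinases, receptors and other clients and passes through a cycle timed by co-chaperones. TRiC is a barrel that folds actin and tubulin, and in the matrix the chaperonins HSP60 and HSP10 fold imported proteins after mitochondrial HSP70 has pulled them in. Heat and other proteotoxic stress raise many of these genes through HSF1.

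Over all groups these genes were abundant messages. The mean over 8 libraries was at least 50 TPM in 30 of the 33 genes. Hsp90ab1, the constitutive cytosolic HSP90, was the highest with a mean of 3817 TPM, above 99.9% of the genes tested. It was followed by Hspa8, the constitutive HSP70 (1182 TPM), Hspd1, which encodes HSP60 (969 TPM), Hsp90aa1, the inducible HSP90 (893 TPM), and the TRiC subunit gene Cct5 (669 TPM). Hspd1 and Hsp90aa1 did not differ beyond their spread in control cells, at 892, 893 and 827 TPM for Hspd1 and 887, 871 and 830.0 TPM for Hsp90aa1. Hspa1b, the strictly heat-inducible HSP70, was the lowest at a mean of 2.06 TPM, on 20 to 46 reads per library in the fit. Summed over the 33 genes, chaperones made up 1.39%, 1.35% and 1.36% of all TPM in Q11 replicates 1 to 3, 1.36%, 1.36% and 1.40% in M2 replicates 1 to 3 and 1.25%, 1.26% and 1.22% in control replicates 1 to 3. Every Q11 and M2 library was above every control library in this share, whereas Q11 and M2 libraries overlapped. In such bulk RNA, more cells with a message and more message per cell cannot be told apart.

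**Figure D1:**
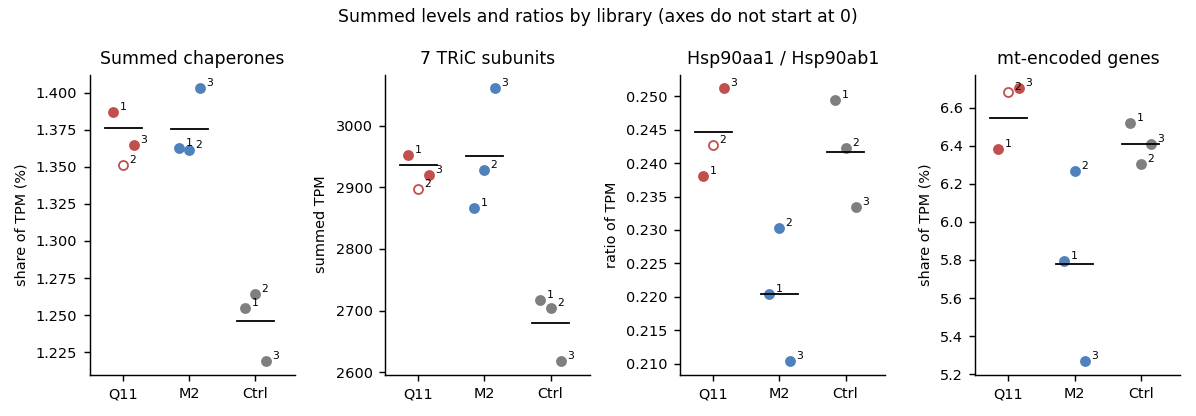
Share of TPM summed over the 33 chaperone genes (%), summed TPM of 7 TRiC subunits, ratio of Hsp90aa1 to Hsp90ab1 TPM and share of TPM of 13 mitochondrially encoded genes (%), by library, with Q11, M2 and Ctrl (control) side by side. Points are libraries with their replicate numbers, the open point is Q11 replicate 2, and lines are means without it. The chaperone share is at least 1.35% in each Q11 and M2 library and at most 1.26% in each control library.

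The first comparison sets cytokine-treated M2 cells against control cells. Of the 33 chaperones, 12 rose and 0 fell (limma on log2(TPM + 1), Benjamini-Hochberg adjusted p under 0.05 over all 14014 genes). The background in this comparison was 5.06% of all genes risen and 4.43% fallen, and 12.8% risen among the 3658 genes that averaged 50 TPM or more, a level chosen after the data were seen. Sizes were small: the 12 genes that rose did so by 1.11-fold to 1.24-fold. Over all 33 the median difference was 0.11 on the log2 scale, against -0.003 over all genes tested, and 30 of the 33 differences were above 0. In 25 genes all 3 M2 libraries lay above all 3 control libraries, as in 14.6% of all genes, and in 0 genes below. Control replicate 3 was the lowest control library in 23 of the 33 chaperones. The count of 12 was 7 without control replicate 2 or control replicate 3, 8 without control replicate 1 or M2 replicate 1, and 9 without M2 replicate 3, and with no mean-variance trend in the variance model it was 4 (Hsph1, Fkbp4, Cct3 and Trap1). All 9 libraries as deposited gave 15, and the shared reads separated gave 11. Transcripts of the mitochondrial genome took 5.796%, 6.27% and 5.27% of TPM in M2 libraries and 6.52%, 6.30% and 6.41% in control libraries, and the part of this share in the differences was not tested.

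Q11 against control compared cells given Q11 and cytokines with untreated cells, and it uses the same control libraries. Here 8 of the 33 chaperones rose and 0 fell, against 2.44% of all genes risen and 3.21% fallen, and 6.34% risen among genes averaging 50 TPM or more. The risen genes were higher by 8.43% (Hspa4) to 24.6% (Hsph1). The median difference was 0.12 on the log2 scale, against -0.002 over all genes, with 31 of 33 above 0. Both Q11 libraries of the fit lay above all control libraries in 30 genes, as in 18.6% of all genes. The count of 8 rests on 2 Q11 libraries: it was 1 without Q11 replicate 1, 2 without Q11 replicate 3, 4 without any 1 of the control libraries and 5 without M2 replicate 1. Taking all 9 libraries as deposited gave 16, and separating the shared reads gave 9. With no mean-variance trend it was 2 (Fkbp4 and Hspd1), and with the replicate number as a block it was 4.

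The last comparison sets Q11 cells against M2 cells. The labels give the cytokine dose for M2 and none for Q11, so that both received the same dose is not stated. None of the 33 chaperones passed, and 0.0% of all genes rose and 0.0% fell by limma (smallest adjusted p 0.166). At an unadjusted p under 0.05 there were 1013 of all genes and 4 chaperones, Hsp90aa1 (0.10), Dnaja1 (0.09), Ppid (0.13) and Cdc37 (-0.09). The median difference over the chaperones was 0.003 on the log2 scale, against -0.006 over all genes, and differences ran from -0.12 for Bag3 to 0.24 for Chordc1. Intervals of 95% reached a median of 0.09 to either side of the difference, with 2 Q11 libraries. Both other treatments of Q11 replicate 2 also gave 0 calls.

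**Figure D2:**
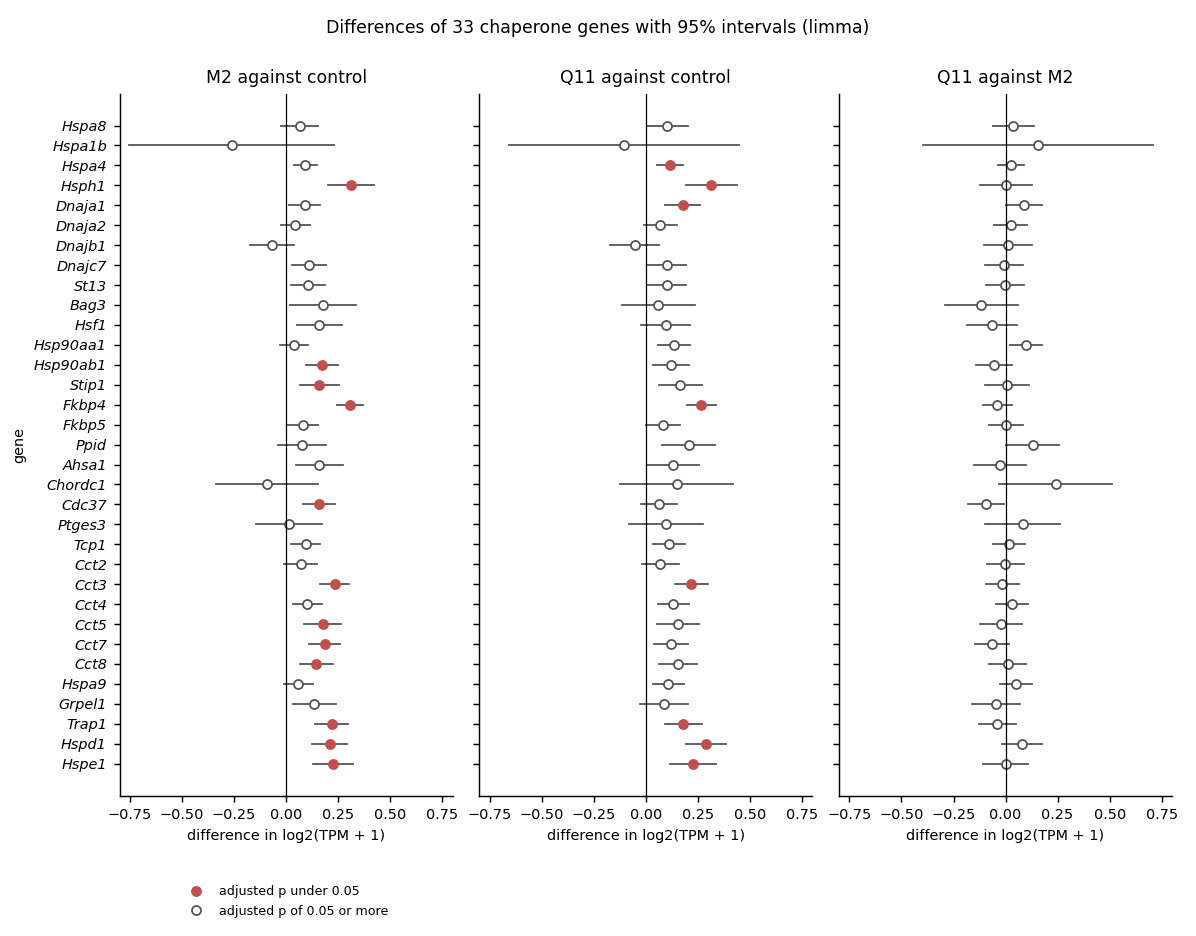
Difference in log2(TPM + 1) of each chaperone gene in M2 against control, Q11 against control and Q11 against M2, with 95% intervals from limma on 8 libraries (Q11 n = 2, M2 n = 3, control n = 3). Filled points passed an adjusted p of 0.05: 12 in M2 against control, 8 in Q11 against control and 0 in Q11 against M2.

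**Figure D3:**
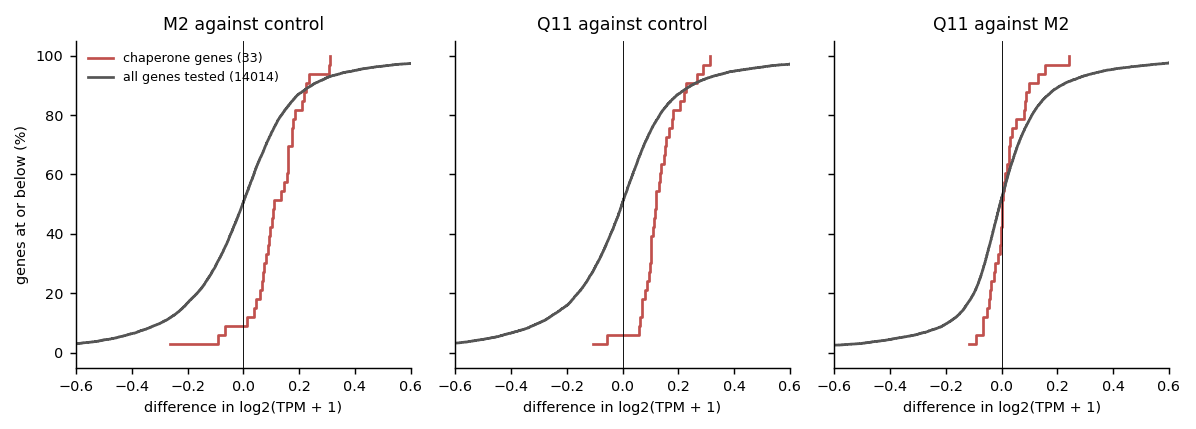
Cumulative share of genes (%) by difference in log2(TPM + 1), for the 33 chaperones and for all 14014 genes tested. In M2 against control and in Q11 against control the chaperone curve lies to the right over most of its height, with medians of 0.11 and 0.12, and in Q11 against M2 it crosses that of all genes near 0.

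Within the HSP70 system of 10 genes, Hsph1 had the largest difference, and the strictly inducible Hspa1b and the J-domain gene Dnajb1 did not pass. Hsph1 encodes HSP110, an exchange factor and disaggregase partner of HSP70 (ENSMUSG00000029657, GRCm38 chromosome 5, 149614287 to 149636376). It had 78.2, 72.8 and 73.5 TPM in Q11 replicates 1 to 3, 75.4, 77.2 and 74.6 TPM in M2 replicates 1 to 3 and 61.8, 63.8 and 57.1 TPM in control replicates 1 to 3, the order in which libraries are given from here on. All M2 and Q11 libraries were above all control libraries. It rose 1.24-fold in M2 (0.31 on the log2 scale, 95% interval 0.20 to 0.42, limma adjusted p = 0.00636), and this call held in all 17 alternatives. In Q11 it rose 1.25-fold over control (0.31, 0.19 to 0.44, adjusted p = 0.0136), a call lost without Q11 replicate 1 (0.123) or Q11 replicate 3 (0.0510). Between Q11 and M2 the difference was 0.003 (-0.12 to 0.13).

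Dnaja1, a J-domain partner of HSP70 in the cytosol, had 89.8, 84.0 and 87.0 TPM in Q11, 82.5, 85.3 and 81.2 TPM in M2 and 79.4, 77.1 and 77.6 TPM in control libraries. The groups lay in that order with no overlap once Q11 replicate 2 was left out. It rose 1.13-fold in Q11 over control (0.18, 0.09 to 0.26, adjusted p = 0.0314, 2 Q11 libraries) but did not pass in M2 against control (0.09, 0.01 to 0.16, adjusted p = 0.147). The Q11 call was lost on separating the shared reads (adjusted p = 0.104), with the replicate block (0.0763), and without Q11 replicate 1 (0.214), Q11 replicate 3 (0.102), control replicate 1 (0.0672), control replicate 2 (0.0919), control replicate 3 (0.0904) or M2 replicate 1 (0.0527).

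Hspa4, another HSP110-type exchange factor, had 261, 257 and 259 TPM in Q11, 253, 256 and 257 TPM in M2 and 241, 242 and 236 TPM in control libraries. It rose by 8.43% in Q11 over control (0.12, 0.05 to 0.18, adjusted p = 0.0459, 2 Q11 libraries), and stood just outside the threshold in M2 against control (0.09, 0.04 to 0.15, adjusted p = 0.0519). Its Q11 call was lost without each library in turn (adjusted p from 0.0524 without M2 replicate 3 to 0.247 without Q11 replicate 1), and with unfiltered low values (0.0539), quantile normalization (0.0554), median-ratio scaling (0.0512) or the replicate block (0.109).

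The remaining 7 genes of the HSP70 system passed in no comparison. Hspa8, the constitutive HSP70, was at 1212, 1214 and 1240 TPM in Q11, 1161, 1169 and 1254 TPM in M2 and 1141, 1179 and 1103 TPM in control libraries, and M2 and control overlapped. Dnajb1, a J-domain gene known for its strong heat induction, lay at 63.1, 63.4 and 63.0 TPM in Q11, 59.4, 64.8 and 63.3 TPM in M2 and 62.6, 67.9 and 66.0 TPM in control libraries (M2 against control -0.07, -0.17 to 0.04, adjusted p = 0.432). Bag3, an exchange factor of selective autophagy, was at 69.0, 63.6 and 60.4 TPM in Q11, 67.0, 68.02 and 75.3 TPM in M2 and 65.9, 59.2 and 60.7 TPM in control libraries. Its M2 difference of 0.18 (0.02 to 0.33) had an adjusted p of 0.165. Dnaja2 and Dnajc7, which encode further J-domain proteins, and St13, which encodes the HSP70-interacting protein HIP, differed by 0.04 to 0.11 in M2 against control and by 0.07 to 0.10 in Q11 against control. Hsf1, the factor that drives heat shock transcription, had 30.4, 30.3 and 29.7 TPM in Q11, 30.4, 33.1 and 31.1 TPM in M2 and 27.5, 27.9 and 28.8 TPM in control libraries. Its M2 libraries were above its control libraries, but the difference of 0.16 (0.05 to 0.27) did not pass (adjusted p = 0.0715).

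Promoters were searched for the heat shock element, the repeated unit that HSF1 binds, because genes known as HSF1 targets were found both among those that rose and those that did not pass. A run of 3 units was searched as GAANNTTCNNGAA or TTCNNGAANNTTC, each of which is the other read on the opposite strand, from 250 bases before to 50 bases after RefSeq starts (GRCm38.p6). Pairs of units, GAANNTTC or TTCNNGAA, read the same on both strands. Every longer match contains pairs, so the counts overlap. Windows of 26 of the 34 genes were read, without Hsp90ab1, Hsp90aa1, Hspa8, Hspa9, Hsf1, St13, Ppid and Cct4. The longer pattern was found in 4 of these 26 genes, Chordc1, Hspd1, Hspe1 and Hsph1, and in 179 of all 27025 genes with a window (0.662%), or 0.603% of all 32851 windows. The pair was found in 12 of the 26 and in 17.0% of all genes with a window, or 15.1% of all windows. A match is a description of letters and not of binding. Hsph1 carried the longer pattern at bases 16 to 28 after one of its starts. It is printed here, units in capitals, as the gene of the HSP70 system with the largest difference from control, beside the pair before the near-identical genes Hspa1b and Hspa1a, on the minus strand at chr5:149636280-149636309, chr17:34959309-34959368 and chr17:34972227-34972286.

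Hsph1: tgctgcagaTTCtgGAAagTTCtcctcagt
Hspa1b: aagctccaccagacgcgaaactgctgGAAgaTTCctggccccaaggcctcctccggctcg
Hspa1a: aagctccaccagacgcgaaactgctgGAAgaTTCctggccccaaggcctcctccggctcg

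Hspa1a and Hspa1b were identical over 247 of the 250 bases before their starts. Their transcribed sequences were not compared here, and whether reads of these near-identical genes were told apart was not tested, so the value of Hspa1b is uncertain. Hspa1b was at 2.28, 1.88 and 1.86 TPM in Q11, 2.20, 1.60 and 1.49 TPM in M2 and 1.77, 3.24 and 2.05 TPM in control libraries, and the groups overlapped. Its M2 difference was -0.26 with a wide interval (-0.76 to 0.23, adjusted p = 0.519).

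**Figure D4:**
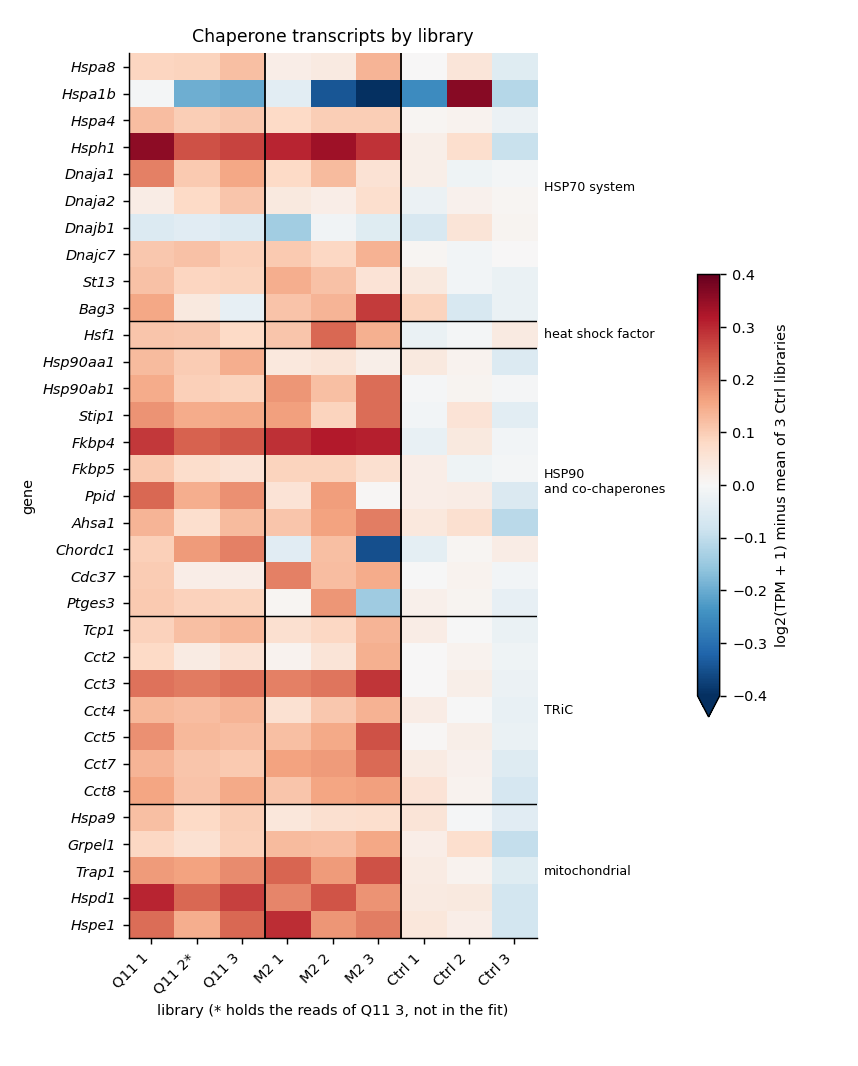
Level of each chaperone gene (rows, grouped by role) in each library (columns), as log2(TPM + 1) minus the mean of the 3 control libraries. Q11 replicate 2 is marked, and the darkest blue also covers lower values. Hsph1, Fkbp4, Cct3, Trap1, Hspd1 and Hspe1 are above 0 in each Q11 and M2 library, and Chordc1 is lowest in M2 replicate 3.

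Of the 2 cytosolic HSP90 genes, Hsp90ab1 rose in M2 and Hsp90aa1 passed in no comparison. Hsp90ab1 (ENSMUSG00000023944, chromosome 17, 45567775 to 45573271) had 3955, 3811 and 3800.3 TPM in Q11, 4029.8, 3877 and 4170.4 TPM in M2 and 3556, 3597 and 3554 TPM in control libraries. It rose 1.13-fold in M2 (0.17, 0.10 to 0.25, adjusted p = 0.0175). The call was lost with quantile normalization (0.104) and with no filter on low values (0.15), with no mean-variance trend (0.0708), and without control replicate 1 (0.0676), control replicate 2 (0.0522), control replicate 3 (0.0584) or M2 replicate 1 (0.0533). Against control its Q11 difference of 0.12 (0.03 to 0.21) did not pass (adjusted p = 0.119).

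Hsp90aa1, the inducible form, had 941, 925 and 955 TPM in Q11, 888, 893 and 877 TPM in M2 and 887, 871 and 830.0 TPM in control libraries. M2 and control overlapped (0.04, -0.03 to 0.11, adjusted p = 0.483), while both Q11 libraries of the fit lay above all M2 and control libraries. Q11 replicate 2 did so as deposited, but at 892 TPM with the shared reads removed it lay within the M2 range. Its Q11 differences were 0.10 over M2 (0.02 to 0.17, adjusted p = 0.677) and 0.14 over control (0.06 to 0.21, adjusted p = 0.0547), and the difference from control passed on all 9 libraries as deposited (adjusted p = 0.0256) and with a filter of 5 TPM (0.0395), but not on separating the shared reads (0.117). The ratio of Hsp90aa1 to Hsp90ab1, which does not depend on scaling between libraries, was 0.238, 0.243 and 0.251 in Q11, 0.220, 0.230 and 0.210 in M2 and 0.249, 0.242 and 0.234 in control libraries. Every M2 ratio was below every Q11 and control ratio.

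Co-chaperones of HSP90 numbered 8, of which 3 rose in M2, against 5.06% of all genes (12.8% of those averaging 50 TPM or more). Fkbp4 encodes FKBP52, the immunophilin that accompanies HSP90 in steroid receptor complexes (ENSMUSG00000030357, chromosome 6, 128429735 to 128438677). It had 616, 597 and 602 TPM in Q11, 620, 631 and 629 TPM in M2 and 496, 521 and 503 TPM in control libraries, so that every cytokine-treated library lay above every control library. It rose 1.24-fold in M2 (0.31, 0.24 to 0.37, adjusted p = 4.55e-04) and 1.20-fold in Q11 over control (0.27, 0.20 to 0.34, adjusted p = 0.00204, 2 Q11 libraries), and both calls held in all 17 alternatives. No chaperone had a smaller p in either comparison. Fkbp5, which encodes its relative FKBP51, was at 65.9, 64.3 and 63.8 TPM in Q11, 65.1, 65.1 and 64.0 TPM in M2 and 62.3, 60.4 and 60.8 TPM in control libraries, and did not pass (M2 against control 0.08, 0.01 to 0.15, adjusted p = 0.171).

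Stip1 encodes HOP, which bridges HSP70 and HSP90. It had 423, 414 and 415 TPM in Q11, 419, 398 and 436 TPM in M2 and 371, 388 and 363 TPM in control libraries. It rose 1.12-fold in M2 (0.16, 0.07 to 0.25, adjusted p = 0.0464), a call near the threshold that was lost without each library other than M2 replicate 2 (adjusted p 0.0535 to 0.140). It was also lost with median-ratio scaling (0.0546), quantile normalization (0.0849), no filter on low values (0.103) and the replicate block (0.11). In Q11 over control the difference was 0.17 (0.06 to 0.27, adjusted p = 0.0781), which passed on separating the shared reads (0.0421). Cdc37, the co-chaperone that brings kinases to HSP90, had 145, 137 and 137 TPM in Q11, 155, 147 and 149 TPM in M2 and 135, 136 and 134 TPM in control libraries. It rose 1.12-fold in M2 (0.16, 0.08 to 0.23, adjusted p = 0.0234), a call lost on leaving out M2 replicate 1 (0.0724), M2 replicate 3 (0.0521), or control replicate 1 (0.0768), 2 (0.0611) or 3 (0.0766). All Q11 values of Cdc37 were below all M2 values, at an unadjusted p of 0.0346 and an adjusted p of 0.677.

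Among the other 4 co-chaperones none passed. Ahsa1, the activator of HSP90's ATPase, was at 169, 161 and 168 TPM in Q11, 166, 172 and 178 TPM in M2 and 159, 161 and 143 TPM in control libraries (M2 against control 0.16, 0.05 to 0.27, adjusted p = 0.0820). Ppid, which encodes the cyclophilin CYP40, was at 68.5, 64.5 and 66.3 TPM in Q11, 60.6, 65.6 and 58.5 TPM in M2 and 59.5, 59.6 and 56.0 TPM in control libraries (Q11 against control 0.21, 0.08 to 0.33, adjusted p = 0.0759). Chordc1, which encodes the HSP90 partner morgana, and Ptges3, which encodes the client-stabilising co-chaperone of the closed HSP90 state, varied most within M2. Chordc1 had 64.3, 67.8 and 69.4 TPM in Q11, 58.3, 65.5 and 46.9 TPM in M2 and 58.6, 60.5 and 61.4 TPM in control libraries. Ptges3 had 288, 285 and 284 TPM in Q11, 269, 302 and 242 TPM in M2 and 272, 269.6 and 262 TPM in control libraries. For both, M2 replicate 3 was the lowest of all 9 libraries. The Chordc1 difference in M2 against control was -0.09 with that replicate and 0.04 without it, so no direction is given for it.

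The promoter windows of these genes differed in the element. Chordc1 held overlapping matches of the longer pattern from 4 bases before to 19 bases after its start (chr9:18292259-18292288, plus strand), and Fkbp4 held 1 pair 151 bases before its start (chr6:128438774-128438833, minus strand). They are shown as the longest run of units among the member windows read, and as the window of the member with the smallest p. Whether the element bears on the differences was not tested.

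Chordc1: accgGAAcgTTCggGAAaaTTCctGAAgca
Fkbp4: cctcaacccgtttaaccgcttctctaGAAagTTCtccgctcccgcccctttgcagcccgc

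The TRiC subunit genes shared a direction. All 7 subunit genes of the set were above 0 in M2 against control. All 7 had every M2 library above every control library, and 4 of them rose (median 0.15). Of all genes tested, 14.6% had M2 wholly above control and 5.06% rose, or 12.8% of those averaging 50 TPM or more. In Q11 against control, which uses the same control libraries, all 7 were above 0 and 1 rose (median 0.13). In all 7 the 2 Q11 libraries of the fit lay above all control libraries. In this comparison 18.6% of all genes had Q11 wholly above control and 2.44% rose, or 6.34% of those averaging 50 TPM or more. With the shared reads removed, Cct2 in Q11 replicate 2 was at 502 TPM, within the control range of 495 to 505 TPM. The summed TPM of the 7 genes was 2953, 2898 and 2920.0 in Q11, 2866, 2928 and 3061 in M2 and 2717, 2704 and 2618 in control libraries. Cct3 (ENSMUSG00000001416, chromosome 3, 88297116 to 88321767) had the largest difference, with 244, 243 and 245 TPM in Q11, 241, 244 and 256 TPM in M2 and 210.0, 213 and 206 TPM in control libraries. It rose 1.18-fold in M2 (0.23, 0.16 to 0.30, adjusted p = 0.00310), a call that held in all 17 alternatives. It rose 1.16-fold in Q11 over control (0.22, 0.14 to 0.30, adjusted p = 0.00951), and that call was lost without Q11 replicate 1 (0.0824) or Q11 replicate 3 (0.0766).

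Cct7 had 334, 329 and 327 TPM in Q11, 339.9, 342 and 355 TPM in M2 and 311, 307 and 293 TPM in control libraries, and rose 1.14-fold in M2 (0.19, 0.11 to 0.26, adjusted p = 0.0108). Its M2 libraries were above its Q11 libraries, and these above control, but neither Q11 comparison passed (Q11 against control 0.12, adjusted p = 0.104). Cct5 had 706, 679.9 and 676 TPM in Q11, 675, 690.4 and 741 TPM in M2 and 623, 631 and 609 TPM in control libraries, and rose 1.13-fold in M2 (0.18, 0.09 to 0.27, adjusted p = 0.0288). That call was lost without control replicate 1 (0.0843), control replicate 2 (0.0633) or control replicate 3 (0.0936), and with quantile normalization (0.0616), no filter on low values (0.0737) or the replicate block (0.0766). Cct8 had 412, 399 and 409 TPM in Q11, 399, 412 and 413 TPM in M2 and 383, 372 and 352 TPM in control libraries. It rose 1.11-fold in M2 (0.15, 0.06 to 0.23, adjusted p = 0.0389), and the call was lost without each library other than control replicate 1 (0.0630 to 0.0980) and on separating the shared reads (0.0502). It was also lost with no filter on low values (0.0818), with the replicate block (0.0823) and with quantile normalization (0.207), where the difference was 0.08.

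Tcp1, Cct4 and Cct2 did not pass in either comparison with control. Tcp1 was at 392, 401 and 404 TPM in Q11, 385, 389.6 and 404 TPM in M2 and 376, 368 and 361 TPM in control libraries (M2 against control 0.09, 0.03 to 0.16, adjusted p = 0.0939). Cct4 was at 337, 335 and 338 TPM in Q11, 321, 331 and 339 TPM in M2 and 314, 307 and 301 TPM in control libraries (Q11 against control 0.13, 0.06 to 0.21, adjusted p = 0.0577, or 0.0349 on separating the shared reads). Cct2 was at 529, 512 and 521 TPM in Q11, 506, 519 and 552 TPM in M2 and 501, 505 and 495 TPM in control libraries. A barrel holds equal numbers of its subunits, while the TPM of their genes differed. The highest, Cct5, exceeded the lowest, Cct3, by 2.76-fold to 2.97-fold in every library.

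**Figure D5:**
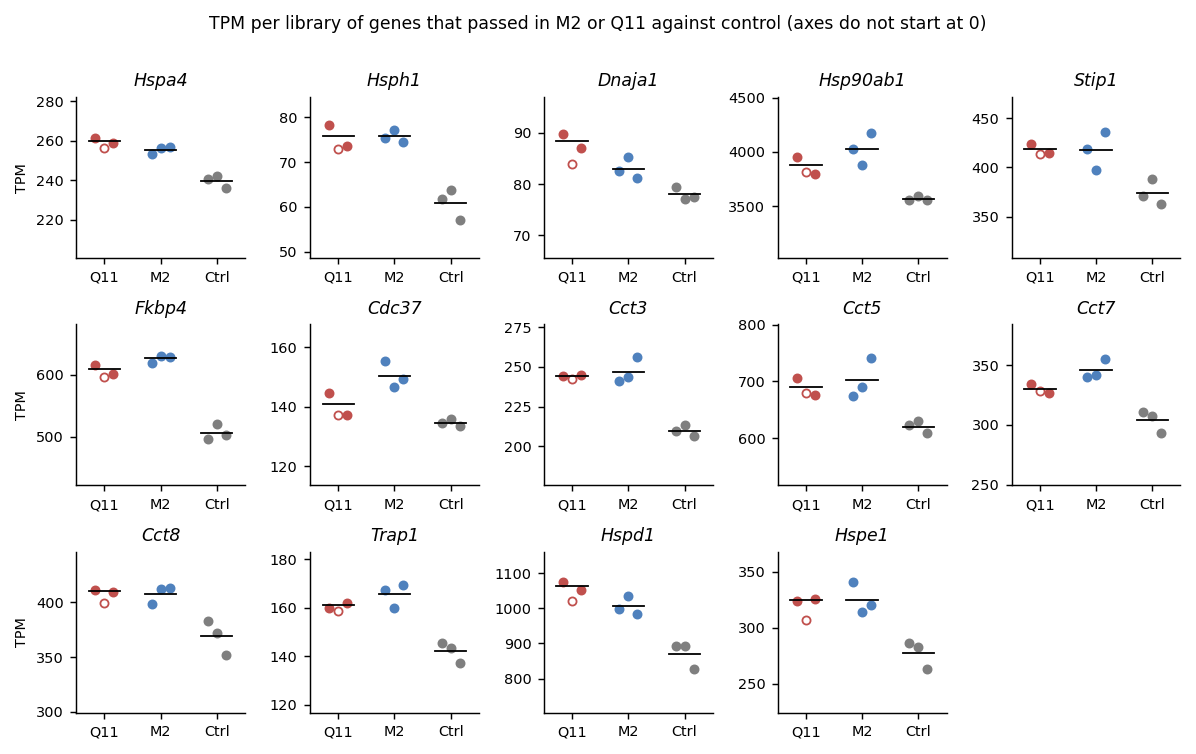
TPM per library of the chaperone genes that passed in M2 against control or in Q11 against control, with Q11, M2 and Ctrl (control) side by side and axes that do not start at 0. Points are libraries, the open point is Q11 replicate 2, and lines are means without it. In each panel all M2 and Q11 points, as deposited, lie above all control points. With the shared reads removed, Hspe1 in Q11 replicate 2 would lie below control replicate 1.

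Of the 5 chaperones of the mitochondrial matrix, 3 rose in M2 against control and 3 in Q11 against control. Of all genes, 5.06% and 2.44% rose in these comparisons, or 12.8% and 6.34% of those averaging 50 TPM or more. Hspd1 encodes HSP60 (ENSMUSG00000025980, chromosome 1, 55077835 to 55088243) and Hspe1 its lid HSP10 (ENSMUSG00000073676, chromosome 1, 55088132 to 55091307). Hspd1 had 1075, 1021 and 1051 TPM in Q11, 997, 1035 and 985 TPM in M2 and 892, 893 and 827 TPM in control libraries. It rose 1.16-fold in M2 (0.21, 0.12 to 0.29, adjusted p = 0.0123) and 1.22-fold in Q11 over control (0.29, 0.19 to 0.38, adjusted p = 0.00653), the second call being lost without Q11 replicate 1 (0.0732). Hspe1 had 324, 307 and 326 TPM in Q11, 341, 314 and 320.0 TPM in M2 and 286, 283 and 264 TPM in control libraries. With the shared reads removed, Hspe1 in Q11 replicate 2 was at 285.5 TPM, just below control replicate 1 at 286.3 TPM. The following values of Hspe1 are from the fit without that library. It rose 1.17-fold in M2 (0.23, 0.13 to 0.32, adjusted p = 0.0152) and 1.17-fold in Q11 over control (0.23, 0.12 to 0.34, adjusted p = 0.0318). The Q11 call of Hspe1 was lost on separating the shared reads (0.138), with no filter on low values (0.0704), with the replicate block (0.0694), and without Q11 replicate 1 (0.166), Q11 replicate 3 (0.162), control replicate 1 (0.0539), control replicate 2 (0.0654) or control replicate 3 (0.0715).

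Both genes are read outward from one stretch of chromosome 1. The RefSeq windows of Hspd1 and Hspe1 shared 285 of their 300 bases, with starts 216 bases apart on opposite strands. The 100 bases that hold the element (chr1:55088018-55088117) are shown for the strand of each gene, since 4 units in a row make 2 overlapping matches that both genes share.

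Hspe1: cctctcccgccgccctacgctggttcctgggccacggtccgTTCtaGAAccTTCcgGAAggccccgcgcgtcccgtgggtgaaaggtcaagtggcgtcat
Hspd1: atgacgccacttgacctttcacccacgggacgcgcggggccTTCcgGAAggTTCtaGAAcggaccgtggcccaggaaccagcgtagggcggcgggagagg

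The element began 89 bases before the start of Hspe1 and 144 bases before that of Hspd1. The ratio of Hspd1 to Hspe1 TPM was 3.32, 3.33 and 3.23 in Q11, 2.93, 3.298 and 3.08 in M2 and 3.11, 3.16 and 3.14 in control libraries, and M2 overlapped both other groups.

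Trap1, the HSP90 of mitochondria (ENSMUSG00000005981, chromosome 16, 4039971 to 4077827), had 160.0, 159 and 162 TPM in Q11, 167, 159.9 and 169 TPM in M2 and 145, 144 and 137 TPM in control libraries. It rose 1.17-fold in M2 (0.22, 0.14 to 0.30, adjusted p = 0.00697), which held in all 17 alternatives. In Q11 over control it rose 1.13-fold (0.18, 0.09 to 0.27, adjusted p = 0.0355), a call lost without Q11 replicate 1 (0.165), Q11 replicate 3 (0.181), control replicate 1 (0.0637), control replicate 2 (0.0788), control replicate 3 (0.0932) or M2 replicate 1 (0.0562), with the replicate block (0.114) and when low values were not filtered (0.0575). Hspa9, the mitochondrial HSP70, was at 399, 387 and 392 TPM in Q11, 378, 383 and 384 TPM in M2 and 379.8, 365 and 355 TPM in control libraries, with M2 and control overlapping (0.06, -0.01 to 0.13, adjusted p = 0.286). Grpel1, its nucleotide exchange factor, was at 72.6, 71.6 and 73.3 TPM in Q11, 74.9, 74.8 and 76.4 TPM in M2 and 69.8, 71.9 and 64.1 TPM in control libraries (M2 against control 0.13, 0.03 to 0.24, adjusted p = 0.107).

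Genes around these were taken as lists chosen with earlier results known. Of all genes, 5.06% rose and 4.43% fell in M2 against control, and 2.44% rose and 3.21% fell in Q11 against control. Among genes averaging 50 TPM or more, 12.8% and 6.34% rose in these comparisons. Of 23 other mitochondrial chaperones, import components and proteases tested, 5 rose and 0 fell in M2 against control (median 0.10). They were Bcs1l, an assembly chaperone of respiratory complex III, at 38.2 ± 1.88 TPM in M2 and 29.7 ± 1.12 TPM in control libraries (SD, n = 3 each; adjusted p by limma 0.00423), Tomm40, the channel of the outer membrane, at 114 ± 5.35 TPM in M2 and 93.5 ± 1.39 TPM in control libraries (0.00489), Timm44, which ties mitochondrial HSP70 to the import channel, at 73.0 ± 1.04 TPM in M2 and 64.7 ± 1.64 TPM in control libraries (0.0159), Tomm20, an import receptor (0.0443), and Ppif, the matrix cyclophilin (0.0277). In Q11 against control 2 of the 23 rose, Tomm40 (0.20, adjusted p = 0.0423) and Timm44 (0.18, 0.0265), and 0 fell.

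Of 24 other HSP90 co-chaperones tested, 5 rose and 1 fell in M2 against control (median 0.06), against 5.06% and 4.43% of all genes. Ruvbl1 and Ruvbl2, the paired ATPases of the R2TP complex, were at 141 ± 4.86 TPM in M2 and 119 ± 1.99 TPM in control libraries (adjusted p = 0.00342, limma) and at 145 ± 10.9 TPM in M2 and 121 ± 5.25 TPM in control libraries (0.0329). Ppp5c, a phosphatase that acts on HSP90 clients, rose by 0.18 (0.0158), Nudc by 0.13 (0.0179) and the import receptor gene Tomm70a by 0.14 (0.0344), while Fnip1, which encodes a folliculin partner and slow-cycle co-chaperone, fell by 0.22 (adjusted p = 0.0466). Ruvbl1 (0.24, 0.00803) and Tomm70a (0.20, 0.0171) also rose in Q11 against control, and 0 fell, against 2.44% and 3.21% of all genes.

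The remaining lists held few calls, beside 5.06% of all genes risen in M2 against control and 2.44% in Q11 against control. None of 25 other HSP70, HSP40 and exchange factor genes passed in any comparison (median -0.04 in M2 against control). Nor did any of 15 prefoldin, phosducin-like and tubulin cofactor genes with the TRiC subunit Cct6a (median 0.01). Cct6a was at 376 ± 20.4 TPM in M2 and 347 ± 6.85 TPM in control libraries (0.11, limma adjusted p = 0.145). In Q11 (n = 2) it was at 397 TPM, with no overlap with control (0.19, 0.09 to 0.30, limma adjusted p = 0.0531). Of the small heat shock proteins 2 of 9 were tested and 0 passed. Among 9 heat shock factors and stress-induced partners tested, 0 passed, with medians of -0.08 in M2 and -0.11 in Q11 against control. In M2 against control Atf5, a factor of the mitochondrial stress response, was nearest to passing. It was at 192 ± 5.83 TPM in M2 and 173 ± 7.68 TPM in control libraries (0.15, limma adjusted p = 0.0548). Ubb differed by -0.05 (0.319) and Hmox1 by -0.04 (0.651) in that comparison. In Q11 against control Sqstm1 was nearest, and it was lower (-0.17, limma adjusted p = 0.0778). Npm1, a nucleolar chaperone, was the 1 of 7 nucleolar and nascent-chain chaperones that passed, at 864 ± 12.6 TPM in Q11 (n = 2) and 748 ± 38.9 TPM in control libraries (n = 3; limma adjusted p = 0.0410). In Q11 against M2, 0 genes of any of these lists passed.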

How the data were processed

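The authors deposited TPM per gene for 9 libraries of poly-A RNA in 1 table. The submitters' processing notes list HISAT2 2.0.5 and StringTie 1.3.3b with the builds mm10 and GRCm38; the gene annotation is not given in the sources used here. Columns were matched to samples by title. Gene positions and exon lengths came from GENCODE M21 (97.8% of IDs), and promoter windows from RefSeq (GRCm38.p6). TPM times exon length came in whole steps (98.9% to 99.2% of values up to 20 reads, within 0.1 read), which gave the reads recovered.

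The shared part of Q11 replicate 2 was 0.526 times the TPM of Q11 replicate 3, and Q11 replicate 2 was left out of the fit. Genes reaching 1 TPM in 3 or more of the 8 libraries were tested as log2(TPM + 1), which understates the changes of low genes, with limma 3.58.1 in R 4.3.3 (1 mean per group, eBayes with trend, 5 residual degrees of freedom, two-sided, Benjamini-Hochberg, threshold 0.05). A fold is the ratio of mean TPM. The fit was also run on simulated data with changes placed in the M2 group only, larger than most differences of the members. It does not cover smaller differences or changes in Q11. Same-numbered libraries did not deviate together (correlations -0.03 to 0.02, from numbers in the titles), so no block was used. The 17 alternatives comprise 8 that leave out 1 library. Members, lists and the exclusion were chosen with earlier results of these data known. Every member is reported. Members that passed, and the 5 highest, were to be given in every library, and up to 6 genes per list were named where they passed. Genes singled out beyond this were chosen after their values were seen. Tables and plots were made in Python 3.11.15 (pandas 2.3.3, matplotlib 3.10.9).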

Additional observations from a re-analysis of the deposited data

How the results depend on the processing

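Each of the 12 genes risen in M2 and the 8 risen in Q11 against control was higher in every alternative. For the 8 alternatives that leave out 1 library this was fixed in advance, since the groups of these genes did not overlap. Dropping the filter or the mean-variance trend does not change a difference. These alternatives therefore could not test the direction. The median difference of the members stayed between 0.09 and 0.12 in M2 against control, between -0.01 and 0.02 in Q11 against M2, and between 0.11 and 0.13 in Q11 against control. Calls were less stable. With no mean-variance trend, M2 against control gave 791 genes and 4 members, and Q11 against control 444 genes and 2 members. Leaving out 1 library gave 732 to 1130 genes and 7 to 11 members in M2 against control, 252 to 818 genes and 1 to 9 members in Q11 against control, and 0 to 1 gene in Q11 against M2 (without control replicate 3). All 9 libraries as deposited gave 1524 genes and 16 members in Q11 against control. With no filter on low values, 5 members passed in Q11 against control and 3 genes in Q11 against M2. With the replicate number as a replicate block, which pairs libraries by number only, Q11 against control gave 467 genes and 4 members. The cause of these shifts was not tested. Directions turned for genes that did not pass. With quantile normalization, M2 against control gave -0.0012 for Hsp90aa1 and -0.0204 for Ptges3. Leaving out 1 library gave -0.198 to 0.038 for Chordc1 and -0.0672 to 0.0923 for Ptges3 in M2 against control, and -0.233 to 0.0764 for Hspa1b and -0.034 to 0.155 for Bag3 in Q11 against control. Leaving out a Q11 library leaves 1, whose spread is assumed to be that of the other groups. Hspa1b, at 20 to 46 reads, is the member most limited by depth.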
